A study of Mus musculus with 12 samples.

Results

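The Cre-dependent part of the 4-OHT response is the change that 4-hydroxytamoxifen (4-OHT) made in cells carrying the CreERT2 recombinase beyond the change it made in cells without it. It was taken for every gene as a difference of differences on the log2 scale: the 4-OHT minus ethanol change of Cre-positive cells minus the 4-OHT minus ethanol change of Cre-negative cells. Of 12 libraries of ribosome-depleted total RNA, 8 enter it, and 17609 of the 47517 lines of the deposited table held enough counts to be tested. A gene is called higher where this difference was above 0 with an adjusted p under 0.05, and lower where it was below 0 with such a p.

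The groups, of 2 libraries each, were Cre-positive cells given 4-OHT (libraries 11 and 12), Cre-positive cells given ethanol, the vehicle (3 and 4), Cre-negative cells given 4-OHT (5 and 6) and Cre-negative cells given ethanol (9 and 10). The remaining 4 libraries, Cre-positive (7 and 8) and Cre-negative (1 and 2) untreated cells, helped to estimate the spread and served as a substitute for the ethanol libraries. Every library came from C57BL/6 mouse embryonic fibroblasts (MEFs) of E13.5 embryos, immortalised with SV40 large T antigen, and treated cells were taken after 5 days. All groups carry floxed Ssb1 and Ssb2, spelled Ssb1 Fl/F and Ssb2 Fl/Fl for the Cre-positive cells and Ssb1 Fl/Fl and Ssb2 Fl/Fl for the Cre-negative ones. In the Cre-positive cells Cre is expressed from the Rosa locus as a fusion to the oestrogen receptor that needs 4-OHT to act. Cre-negative cells given 4-OHT hold no active Cre, so Cre activity and the loss of the floxed genes cannot be told apart. The labels do not say how many embryos or lines stand behind a genotype. They do not say either whether the 2 libraries of a group are separate cultures, and p-values therefore describe only how far these libraries spread, possibly for technical reasons.

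Ssb1 (gene symbol Nabp2) and Ssb2 (Nabp1) code for proteins that bind single-stranded DNA. Each joins INTS3 and INIP in a SOSS complex, which takes part in signalling from DNA breaks and in homologous recombination. INTS3 is also a subunit of Integrator, the complex that cuts the 3′ ends of the small nuclear RNAs (snRNAs) made by RNA polymerase II and that ends transcription early at many protein-coding genes. Background of the same kind is given below for each gene group.

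Totals ran from 20201855 to 36367012 counts per library over the 12 libraries. The spread between libraries of a group was small, with a biological coefficient of variation of 3.44%. Levels are given as CPM, counts scaled to a common library total, which are not corrected for gene length and are compared only between libraries. In RNA from whole cultures, fewer cells of a kind and less RNA per cell cannot be told apart. Of 10 fibroblast markers 8 were tested, and their summed level was 6787 to 6799 CPM in Cre-positive 4-OHT, 6638 to 7118 in Cre-positive ethanol, 5534 to 5807 in Cre-negative 4-OHT and 5150 to 5335 CPM in Cre-negative ethanol libraries. The fibroblast markers Thy1 and Lum held 10 and 38 counts over all 12 libraries. Of the tested markers Col1a1 (-0.64) and Col1a2 (-0.31) were lower, while Pdgfra was among the 3 that were higher (0.23). Col1a1 was at -0.36 without library 4 and did not pass with DESeq2 (adjusted p = 0.0545).

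Both targeted genes were lower in the difference, and in Cre-positive cells their 4-OHT and ethanol libraries did not overlap. Nabp1 (chr1:51465862-51478425, GRCm38) had 3.40 and 3.96 CPM in Cre-positive 4-OHT libraries, against 14.5 and 15.9 CPM in Cre-positive ethanol libraries. Its Cre-negative levels were 26.3 and 25.7 CPM with 4-OHT and 26.5 and 24.5 CPM with ethanol. Nabp2 (chr10:128401395-128411492) had 4.84 and 5.09 CPM in Cre-positive 4-OHT libraries, against 19.8 and 22.6 CPM in Cre-positive ethanol libraries. The Cre-negative libraries held 31.2 and 28.2 CPM with 4-OHT and 26.2 and 26.4 CPM with ethanol. Levels in Cre-positive cells without 4-OHT thus lay below those of Cre-negative cells for both genes. The log2 difference was -2.08 for Nabp1 (SE 0.129, adjusted p = 6.03e-10) and -2.27 for Nabp2 (SE 0.12, adjusted p = 9.65e-11). Without any 1 of the 8 libraries it stayed between -2.19 and -1.97 for Nabp1 and between -2.38 and -2.17 for Nabp2. The labels do not name the floxed exons, and a gene total cannot separate intact from shortened RNA.

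**Figure D1:**
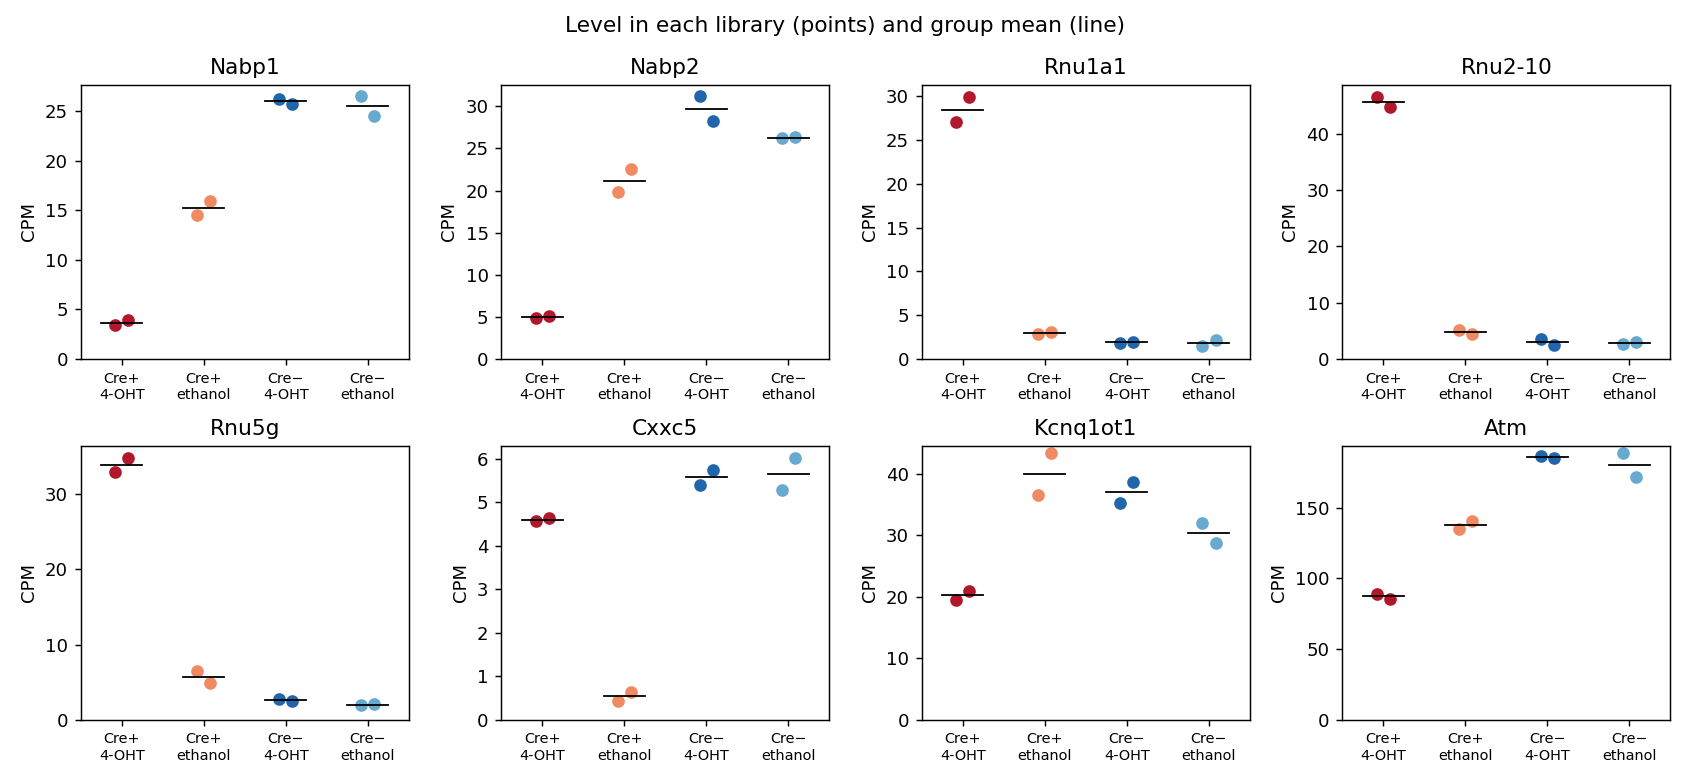
Level in CPM (vertical axis, from 0) of 8 genes in each library (points) with the group mean (line), for Cre-positive and Cre-negative cells given 4-OHT or ethanol, 2 libraries per group. Nabp1, Nabp2, Kcnq1ot1 and Atm were lowest and Rnu1a1, Rnu2-10 and Rnu5g highest in the Cre-positive 4-OHT libraries, while Cxxc5 stood apart through its low level in the Cre-positive ethanol libraries.

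Across all tested genes, 4987 had a difference that passed (28.3%), 2555 being higher (14.5%) and 2432 being lower (13.8%). At least 2-fold differences were called higher for 394 genes (2.24%) and lower for 234 (1.33%). The median over all tested genes was 0.02, with an SD of 0.66. Taken alone, the 4-OHT effect passed for 6736 genes in Cre-positive cells (38.3%) and for 1054 genes in Cre-negative cells (5.99%). In Cre-positive cells 3709 genes rose (21.1%), 464 of them at least 2-fold (2.64%), and 3027 fell (17.2%). In Cre-negative cells 587 rose (3.33%) and 467 fell (2.65%). These effects share no library. They had 607 genes in common, which are 9.01% of the Cre-positive and 57.6% of the Cre-negative calls, and 378 of the 607 went in opposite directions.

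Both effects entered the calls, the Cre-positive one more often as the larger. Among the genes called higher the median was 0.43 for the difference, 0.33 for the Cre-positive effect and -0.11 for the Cre-negative effect, and the Cre-positive effect was the larger in 2131 of 2555 (83.4%). Among those called lower the medians were -0.39, -0.31 and 0.10 in the same order, and the Cre-positive effect was the larger in 1958 of 2432 (80.5%). A called gene can therefore be a change in cells without Cre. The clearest case, picked after its values were seen, was Cgnl1, for the junction protein paracingulin, with a difference of 1.59 (SE 0.0655, adjusted p = 2.18e-12). It had 132 and 125 CPM in Cre-positive 4-OHT and 140 and 139 CPM in Cre-positive ethanol libraries. In Cre-negative cells it had 33.6 and 36.7 CPM with 4-OHT, against 116 and 114 CPM with ethanol.

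**Figure D2:**
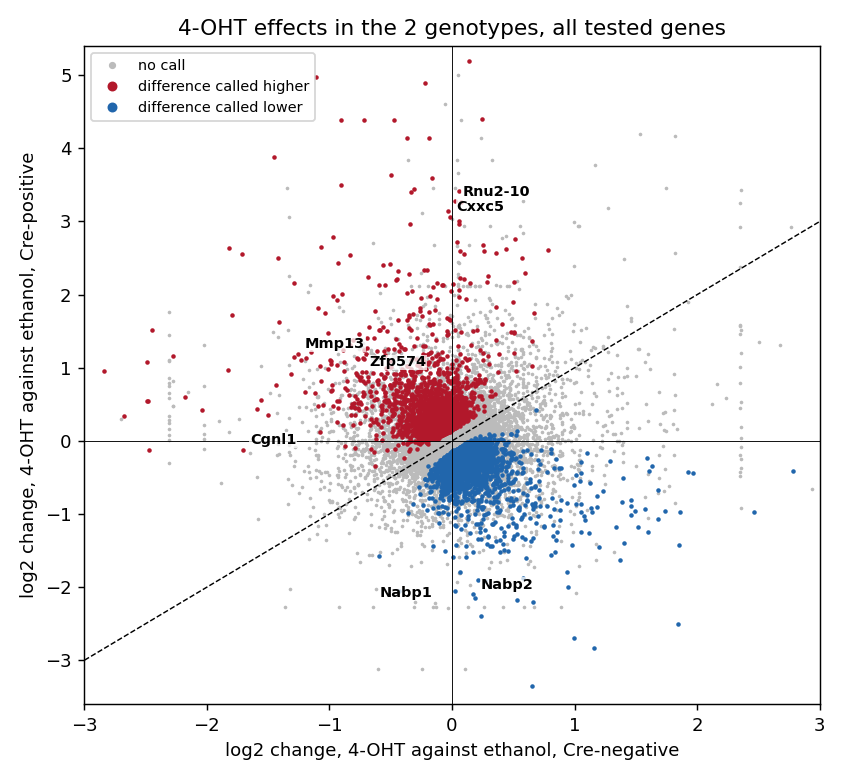
Log2 change with 4-OHT against ethanol for Cre-positive cells (vertical axis) and for Cre-negative cells (horizontal axis), 1 point per tested gene, with equal changes on the dashed line; 31 genes lie outside the axes. Red points were called higher and blue points lower in the difference, and most stand farther from 0 on the vertical than on the horizontal axis, with Cgnl1 as an exception.

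Copies of snRNA genes were among the genes with the largest differences. U1, U2 and U5 snRNAs are the RNA cores of spliceosome particles, and mammalian genomes hold many near-identical copies of their genes. Below, for U1 and U2, the copy with the standard symbol is set beside the most abundant copy of its class as GENCODE M21 gives them (GRCm38), with capitals at the bases that differ. They are shown because copies that differ at so few bases behaved differently, and because reads that miss those bases cannot be assigned to either copy.
Rnu1a1 (U1, chr11:87422867-87423030, plus strand): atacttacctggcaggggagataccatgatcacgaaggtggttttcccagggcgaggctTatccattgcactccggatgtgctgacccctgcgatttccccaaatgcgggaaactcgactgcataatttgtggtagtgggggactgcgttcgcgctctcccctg
Gm22513 (U1, chr12:54696782-54696945, plus strand): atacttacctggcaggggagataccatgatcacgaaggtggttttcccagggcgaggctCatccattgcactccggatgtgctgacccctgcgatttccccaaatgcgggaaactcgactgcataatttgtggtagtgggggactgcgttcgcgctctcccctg
Rnu2-10 (U2, chr11:101658238-101658428, plus strand): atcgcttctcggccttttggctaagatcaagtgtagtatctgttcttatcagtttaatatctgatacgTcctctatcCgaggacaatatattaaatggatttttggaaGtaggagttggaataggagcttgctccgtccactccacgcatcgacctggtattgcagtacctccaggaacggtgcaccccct
Gm25939 (U2, chr1:72255008-72255198, plus strand): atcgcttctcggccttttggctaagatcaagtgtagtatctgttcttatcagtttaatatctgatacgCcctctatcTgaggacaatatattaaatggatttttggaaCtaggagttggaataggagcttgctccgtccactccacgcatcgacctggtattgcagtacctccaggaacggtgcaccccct
Counted from 1 at the 5′ end, with the standard copy's base before the position, the U1 pair differs by T60C and the U2 pair by T69C, C78T and G109C.

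In both pairs, and for U5 with Rnu5g beside the abundant Gm25099, the copy with the standard symbol was the minor one in ethanol, and it had the larger difference. Rnu1a1 had 27.0 and 29.9 CPM in Cre-positive 4-OHT libraries, against 2.84 and 3.05 CPM in Cre-positive ethanol libraries. Without Cre it had 1.81 and 1.98 CPM with 4-OHT and 1.44 and 2.15 CPM with ethanol, so the Cre-positive 4-OHT libraries stood apart from the other groups. Its log2 difference was 3.19 (SE 0.245, adjusted p = 1.31e-08). The abundant U1 copy Gm22513 averaged 167 CPM in Cre-positive 4-OHT, 236 CPM in Cre-positive ethanol, 240 CPM in Cre-negative 4-OHT and 254 CPM in Cre-negative ethanol libraries, a difference of -0.42 (adjusted p = 0.000314).

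Rnu2-10 had 46.5 and 44.7 CPM in Cre-positive 4-OHT libraries, against 5.08 and 4.36 CPM in Cre-positive ethanol libraries. Cre-negative cells had 3.53 and 2.54 CPM with 4-OHT and 2.75 and 3.08 CPM with ethanol. The Rnu2-10 difference of 3.25 (SE 0.202, adjusted p = 6.2e-10) stands beside -0.55 for Gm25939 (adjusted p = 4.27e-06), which averaged 268, 328, 328 and 274 CPM in the same order of groups. Rnu5g had 33.0 and 34.8 CPM in Cre-positive 4-OHT libraries, against 6.48 and 4.93 CPM in Cre-positive ethanol libraries. Its levels in Cre-negative cells were 2.74 and 2.51 CPM with 4-OHT and 1.90 and 2.15 CPM with ethanol. Its difference was 2.22 (SE 0.218, adjusted p = 2.79e-07), against 0.35 for Gm25099 (adjusted p = 0.0311).

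Over whole classes the pattern differed between U5 and the others. All 6 tested U5 copies were higher. Their class sum averaged 116 ± 4.12 CPM in Cre-positive 4-OHT, 43.0 ± 5.87 in Cre-positive ethanol, 32.8 ± 2.15 in Cre-negative 4-OHT and 31.8 ± 0.262 CPM in Cre-negative ethanol libraries (SD, n = 2 each), a difference of 1.39 (SE 0.102, adjusted p = 8.01e-09). Of 12 tested U2 copies 7 were higher, from 2.19 for Gm23849 to 4.16 for Gm23472, and 2 were lower, Gm25939 and Gm25360. Of 12 tested U1 copies 4 were higher and 1 lower, with Gm24830 at 5.05 (9.16 CPM in Cre-positive 4-OHT against 0.241 CPM in Cre-positive ethanol libraries). The copies called higher held 22.1% of U1 counts in Cre-positive 4-OHT libraries, against 2.23% in Cre-positive ethanol ones, and 1.53% and 1.27% in Cre-negative 4-OHT and ethanol ones. For U2 these shares were 26.3% and 4.20% in Cre-positive and 2.88% and 2.96% in Cre-negative cells. The class sums were at -0.10 for U1 (SE 0.0752, adjusted p = 0.359) and -0.05 for U2 (SE 0.0679, adjusted p = 0.656). Neither sum thus had a called difference against ethanol. Within each genotype, however, the U2 sum rose after 4-OHT, by 0.24 with Cre and by 0.28 without it, and both rises passed. The 4-OHT effect on the U1 sum was -0.17 with Cre, which passed, and -0.07 without Cre, which did not. Against untreated libraries the U2 difference turned positive. Gm22068, Gm22317 and Gm22634 are identical to Rnu1a1, and Gm23849, Gm23971 and Gm24950 to Rnu2-10, so the split between them rests on how shared reads were assigned. Gm23971 was at -0.09 (adjusted p = 0.809) while its identical partners were higher.

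Other short non-coding RNAs gave mixed results. U3 small nucleolar RNA guides early cuts of ribosomal RNA: Rnu3b1, Rnu3b3 and Rnu3b4 were higher by 2.00, 1.82 and 1.83, and the abundant Rnu3a was lower (-0.31, SE 0.0845, adjusted p = 0.00842). The telomerase RNA Terc was higher by 0.59 (adjusted p = 0.0032). Rnu3b1 had 29.2 and 28.5 CPM in Cre-positive 4-OHT libraries, against 6.96 and 6.91 CPM in Cre-positive ethanol ones, with 5.74 and 4.79 CPM and 5.39 and 4.65 CPM in Cre-negative 4-OHT and ethanol ones. The U3 class sum was at -0.18 (adjusted p = 0.106). The minor spliceosome's U12 snRNA, Rnu12, had 27.5 and 26.1 CPM in Cre-positive 4-OHT and 38.1 and 37.9 CPM in Cre-positive ethanol libraries, a difference of -0.66 (SE 0.104, adjusted p = 6.98e-05). Untreated Cre-positive cells, however, had 24.9 and 30.9 CPM, and with untreated libraries as the reference the difference was -0.03 (adjusted p = 0.888). Among RNAs of polymerase III, Rn7sk, an inhibitor of the elongation factor P-TEFb, and Rpph1, of RNase P, were higher by 0.37 (adjusted p = 5.93e-05) and 0.34 (adjusted p = 6.25e-05). The other 6 tested RNAs of that list did not pass, but without library 6, 2 of them were lower.

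Genes for the proteins of spliceosome particles moved upward more often than downward. Of 48 tested members 16 were higher and 5 lower, and their median was 0.10 beside 0.02 over all genes. In either direction 43.75% were called, beside 28.3% over all tested genes. Rnpc3, of the minor spliceosome, had 47.1 and 50.5 CPM in Cre-positive 4-OHT libraries, against 30.1 and 31.9 CPM in Cre-positive ethanol ones. With no Cre it had 25.3 and 25.3 CPM with 4-OHT and 27.9 and 27.3 CPM with ethanol, a difference of 0.78 (SE 0.0854, adjusted p = 1.17e-06). Txnl4a of the U5 particle was higher by 0.65, Snrpa1 of the U2 particle by 0.54 and the U5 helicase gene Snrnp200 by 0.44, each with an SE of at most 0.074. Of 16 SOSS and Integrator subunit genes 3 were higher and 3 lower (median -0.03). These calls are 37.5% of the list, beside 28.3% over all tested genes. Cpsf3l, for the RNA-cutting subunit INTS11, had 27.3 and 26.3 CPM in Cre-positive 4-OHT and 39.4 and 36.5 CPM in Cre-positive ethanol libraries, against 50.4 and 50.9 CPM and 53.2 and 60.1 CPM in Cre-negative 4-OHT and ethanol ones (difference -0.34, adjusted p = 0.00596). Ints8 was lower as well (-0.36), but through the Cre-negative effect (0.30, adjusted p = 0.000909), since the Cre-positive effect was -0.07 (adjusted p = 0.296). Ints12 (0.27) and Vwa9 (0.33) were higher. Without library 5, 1 gene of this list was higher, and without library 3, 5 were lower. Ints12 did not pass without library 5 or 10 (adjusted p = 0.0823 and 0.0593).

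Checkpoint, recombination, replication and mitosis genes were lower more often than higher. Of 36 DNA damage checkpoint, homologous recombination and Fanconi genes 15 were lower and 2 higher (median -0.14). In either direction 47.2% of this list were called, beside 28.3% of all tested genes. Atm, the kinase that signals DNA breaks, had 89.1 and 85.7 CPM in Cre-positive 4-OHT libraries, against 135 and 140 CPM in Cre-positive ethanol ones. In Cre-negative cells it had 186 and 185 CPM with 4-OHT and 189 and 172 CPM with ethanol, and these overlap. The difference was -0.70 (SE 0.0652, adjusted p = 1.24e-07), with a Cre-negative effect of 0.05 (adjusted p = 0.635). Atr, the kinase of stalled forks, had 63.7 and 64.0 CPM in Cre-positive 4-OHT and 104 and 95.7 CPM in Cre-positive ethanol libraries, with a difference of -0.68 (SE 0.0666). Fancd2, of the Fanconi pathway, was lower by a smaller amount (-0.48).

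Of 36 DNA replication genes 13 were lower and 2 higher (median -0.05), among them the origin gene Orc1 (-0.70, SE 0.0931), the polymerase gene Pole (-0.51, SE 0.0603), the ligase gene Lig1 (-0.44) and the clamp loader gene Rfc1 (-0.40). Of 30 genes of G2 and mitosis 18 were lower and 1 higher (median -0.23). Called in either direction were 63.3% of the mitosis and 41.7% of the replication genes, beside 28.3% of all tested genes. Kif23, a motor of the central spindle, had 133 and 140 CPM in Cre-positive 4-OHT libraries, against 196 and 203 CPM in Cre-positive ethanol ones, and 220 and 213 CPM against 190 and 183 CPM in Cre-negative cells. Its difference of -0.77 (SE 0.0594, adjusted p = 1.33e-08) thus joins opposite effects of -0.55 and 0.21. The cyclin gene Ccnb2 was lower by -0.56 with a Cre-negative effect of 0.04, and the kinetochore genes Cenpf (-0.47) and Bub1 (-0.44) had opposite effects like Kif23.

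These directions held with untreated in place of ethanol libraries, a comparison that shares its 4-OHT libraries with the first. Then 24 of 36 checkpoint, recombination and Fanconi genes were lower and 1 higher, 22 of 30 mitosis genes lower and 0 higher, and 18 of 48 spliceosome protein genes higher and 6 lower. Over all 17609 tested genes 2121 were higher and 2069 lower in that comparison. Several other groups did not keep their direction.

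Replication-dependent histone genes, whose RNAs end in a stem-loop and not a poly(A) tail, were higher in 47 of 64 cases and lower in 0 (median 0.40). That is 73.4% of the list, beside 14.5% of all tested genes called higher. In Cre-positive cells 41 rose with 4-OHT, and in Cre-negative cells 27 fell. Over all tested genes 21.1% rose in Cre-positive and 2.65% fell in Cre-negative cells. Hist1h4i had 74.9 and 78.0 CPM in Cre-positive 4-OHT libraries, against 36.3 and 36.2 CPM in Cre-positive ethanol ones, with 29.2 and 29.0 CPM and 32.3 and 33.8 CPM in Cre-negative 4-OHT and ethanol ones (difference 1.26, SE 0.0758, adjusted p = 4.39e-10). Hist1h2bl (0.69), Hist1h1a (0.68) and Hist1h3a (0.66) had smaller differences with opposite effects in the genotypes. With untreated libraries as the reference 3 were higher and 11 lower (median -0.04), Hist1h4i still at 0.75 (adjusted p = 5.56e-07).

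Interferon-stimulated genes, the antiviral genes switched on by interferon signalling, were higher in 13 of 43 cases and lower in 0 (median 0.32). This share of 30.2% is near the 28.3% of all tested genes called in either direction. Over all tested genes 14.5% were called higher. They rose with 4-OHT in both genotypes, 34 of 43 in Cre-positive and 20 of 43 in Cre-negative cells, so the difference holds what the Cre-positive rise had beyond the other. Usp18, the protease that removes ISG15, had 9.65 and 10.4 CPM in Cre-positive 4-OHT libraries, against 3.72 and 2.88 CPM in Cre-positive ethanol ones, and 10.2 and 9.71 CPM against 6.79 and 8.17 CPM in Cre-negative cells. Its difference was 1.2 (SE 0.179, adjusted p = 3.94e-05). Ifit1, which binds viral RNA, was at 0.87, Ifi27 at 0.82 and Irf9 at 0.62. The untreated cells changed this picture: Usp18 had 1.18 and 0.934 CPM in Cre-positive and 0.661 and 0.574 CPM in Cre-negative untreated libraries. With them as the reference 22 of 43 members were lower and 1 higher (median -0.66), and Usp18 was at -0.79 (adjusted p = 0.101), Irf9 at -0.51 (adjusted p = 0.000887) and Ifi27 at 0.00.

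**Figure D3:**
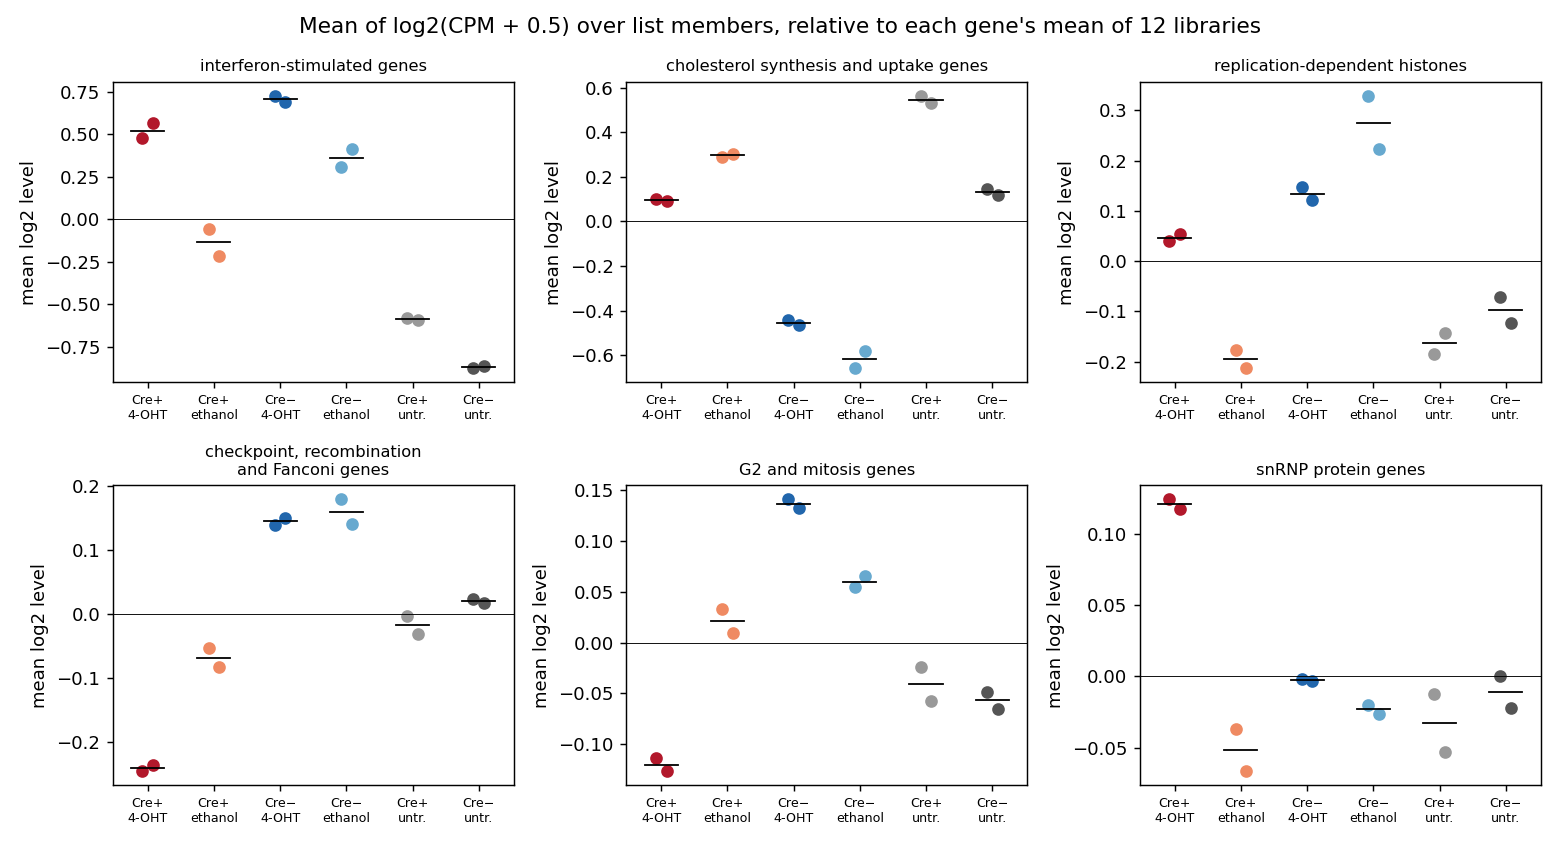
Mean level of 6 gene lists in each library (points) with the group mean (line), as the mean over members of log2(CPM + 0.5) relative to each gene's mean of 12 libraries, for Cre-positive and Cre-negative cells given 4-OHT or ethanol or left untreated; vertical scales differ between panels. For interferon-stimulated genes both untreated groups lay below all treated ones, at means of -0.59 with Cre and -0.87 without Cre, whereas spliceosome particle genes had their highest level in the Cre-positive 4-OHT libraries.

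Genes of cholesterol synthesis and uptake, targets of the transcription factor SREBP2, were lower in 19 of 25 cases and higher in 1 (median -0.38). In either direction 80% were called, beside 28.3% of all tested genes. Nsdhl, an enzyme after lanosterol, had 34.6 and 34.5 CPM in Cre-positive 4-OHT libraries, against 47.0 and 51.2 CPM in Cre-positive ethanol ones, and 30 and 27.5 CPM against 20.3 and 21.5 CPM in Cre-negative cells. Its difference of -0.96 (SE 0.0873, adjusted p = 9.17e-08) joins effects of -0.51 and 0.45. Hmgcs1, for HMG-CoA synthase, was at -0.77, Lss, for lanosterol synthase, at -0.58 and the sterol carrier gene Stard4 at -0.49. With untreated libraries as the reference 11 members were higher and 2 lower (median 0.12). Nsdhl was then at -0.25 (adjusted p = 0.0333), while Hmgcs1 (0.04), Lss (0.05) and Stard4 (0.12) did not pass. Untreated levels were the highest of their genotype for Nsdhl, at 66.9 and 66.5 CPM in Cre-positive and 47.1 and 46.3 CPM in Cre-negative cells.

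Stress and p53 genes were higher more often than lower against ethanol and lower more often than higher against untreated libraries. Of 27 genes of the integrated stress and unfolded protein responses 14 were higher and 2 lower (median 0.24), with Cebpb, a transcription factor, at 0.86 (SE 0.108), the secreted protein genes Creld2 and Manf at 0.46 and 0.44, and the amino acid carrier gene Slc7a5 at -0.67. Cebpb had 84.7 and 75.7 CPM in Cre-positive 4-OHT libraries, against 54.3 and 46.8 CPM in Cre-positive ethanol ones, and 38.4 and 41.4 CPM against 44.2 and 46.8 CPM in Cre-negative cells. Of 27 p53 targets 10 were higher and 5 lower (median 0.16). Called in either direction were 55.6% of the p53 and 59.3% of the stress genes, beside 28.3% of all tested genes. Fas, the death receptor, had 18.3 and 18.9 CPM in Cre-positive 4-OHT libraries and 9.39 to 11.3 CPM in the other 6 libraries, a difference of 1.07 (SE 0.121, adjusted p = 1.69e-06). Btg2, an antiproliferative gene, was at 0.62, while the polo-like kinase gene Plk2 and the death receptor gene Tnfrsf10b were both at -0.62. With untreated libraries as the reference the stress list had 5 higher and 9 lower and the p53 list 4 higher and 10 lower. Fas was then at 0.79 (adjusted p = 5.23e-05) and Cebpb at 0.50 (adjusted p = 0.00199). Over all 17609 tested genes 2121 were higher and 2069 lower against that reference. SV40 large T antigen, which all these cells carry, binds p53. Without library 6, 9, 10 or 11, 6 p53 targets were higher, and without library 9, 9 stress genes were.

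Extracellular matrix and myofibroblast genes were higher in 14 of 30 cases and lower in 6 (median 0.24), but against untreated libraries 10 were higher and 9 lower (median 0.04). In either direction 66.7% were called against ethanol, beside 28.3% of all tested genes. Lox, the collagen crosslinker, was at 0.49 (SE 0.061), Col3a1, for type III collagen, at 0.48 (SE 0.0659) and Fn1, for fibronectin, at -0.82 (SE 0.122). Postn, for periostin, averaged 1199 ± 84.1 CPM in Cre-positive 4-OHT, 764 ± 16.1 in Cre-positive ethanol, 170 ± 1.55 in Cre-negative 4-OHT and 162 ± 2.81 CPM in Cre-negative ethanol libraries, a difference of 0.59 (SE 0.0631, adjusted p = 9.01e-07). In Cre-negative untreated cells, however, it had 33.6 and 31.3 CPM, and the difference against untreated libraries was -1.57 (adjusted p = 3.69e-12). Of 24 cytokine, chemokine and protease genes 3 were higher and 6 lower (median -0.06), but 10 were higher and 3 lower against untreated libraries (median 0.32). Against ethanol 37.5% of this list were called, beside 28.3% of all tested genes. The stromelysin gene Mmp3 had 746 and 708 CPM in Cre-positive 4-OHT libraries, against 346 and 340 CPM in Cre-positive ethanol ones, and 53.9 and 55.5 CPM against 48.3 and 54.8 CPM in Cre-negative cells. Its difference of 1.00 (SE 0.0683, adjusted p = 2.8e-09) was 1.2 against untreated libraries. The IL-33 receptor gene Il1rl1 was at -0.45 and the growth factor gene Csf1 at -0.46. Without library 9, 10 genes of this list were lower.

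**Figure D4:**
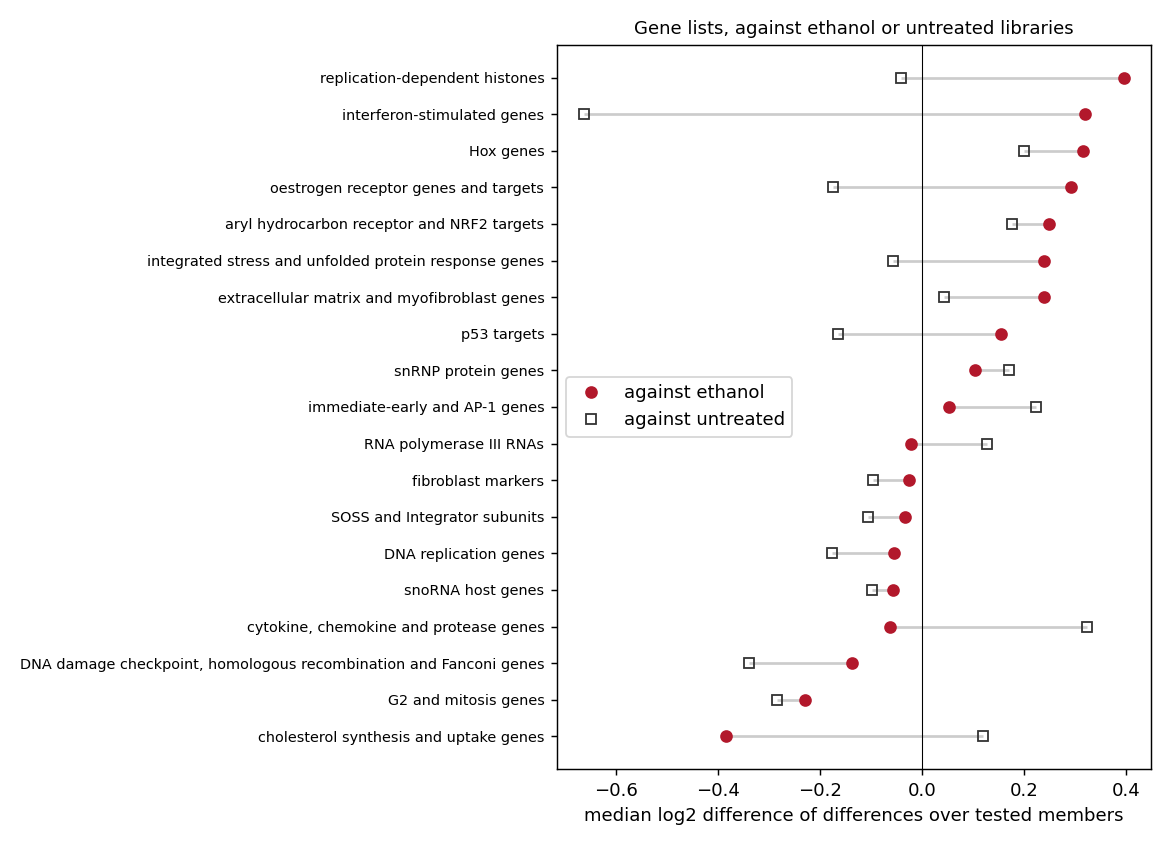
Median log2 difference of differences over the tested members of 19 gene lists (horizontal axis), with ethanol (filled) or untreated libraries (open) as the reference; both use the same 4-OHT libraries. Checkpoint, mitosis, replication and spliceosome protein genes kept their sign, and interferon-stimulated, cholesterol, histone, stress and p53 genes were among those that changed it.

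Smaller sets gave mixed counts. Beside 28.3% of all tested genes, 35.7% of the immediate-early and AP-1 genes and 22.2% of the Hox genes were called in either direction. The shares were 69.2% for oestrogen receptor genes and targets and 44.4% for snoRNA host genes. For targets of the aryl hydrocarbon receptor and NRF2 the share was 43.75%. Among 28 immediate-early and AP-1 genes 5 were higher and 5 lower, with Klf2 at 1.17 (SE 0.143) and Egr1 (-1.14), Fosl1 (-0.81) and Jun (-0.48) lower. Of 16 targets of the aryl hydrocarbon receptor and NRF2 6 were higher and 1, Gclc of glutathione synthesis, lower (-0.29). Tiparp (0.34) and the cytochrome gene Cyp1b1 (0.33) were among those higher. Ahrr, the receptor's repressor, had 38.4 and 38.4 CPM in Cre-positive 4-OHT libraries, against 24.4 and 24.2 CPM in Cre-positive ethanol ones, and 25 and 25.5 CPM against 34.8 and 34.6 CPM in Cre-negative cells, so that opposite effects add up to 1.12 (SE 0.087). Of 13 genes of or under the oestrogen receptor, to which 4-OHT itself binds, 5 were higher and 4 lower, with Wisp2 at 0.71, Ctsd at 0.42 and Cav1 at -0.72. Of 18 Hox genes 4 were higher and 0 lower, Hoxa11 by 0.60, Hoxd8 by 0.42, Hoxa10 by 0.31 and Hoxa13 by 0.28, but 2 were higher without library 6, 9 or 12. Without library 3 or 6, 3 immediate-early genes were higher. Of 9 snoRNA host genes Snhg8 was higher (0.40), and Snhg4 (-0.73), Gas5 (-0.25) and Snhg17 (-0.21) were lower. The calls of 3 of these genes ended without single libraries: Hoxa10 without library 3, 6, 9 or 12 (adjusted p = 0.0503 to 0.101), Hoxa13 without any but library 3 (adjusted p = 0.058 to 0.155) and Snhg17 without library 4, 6, 10 or 12 (adjusted p = 0.0983 to 0.201).

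Markers of other cell types ranged from near 0 to over 100 CPM in sum. Summed over tested members, epithelial markers reached 1.08 CPM and endothelial ones 1.76 CPM in Cre-positive 4-OHT libraries, against at most 0.94 and 0.85 CPM in Cre-positive ethanol ones, with 0 of 1 and 0 of 3 called. Haematopoietic markers summed to 2.77 to 3.63 CPM in Cre-positive 4-OHT libraries, with 0 of 2 called, Tyrobp at 0 in all 12 libraries and Ptprc at no more than 3 counts in a library. Skeletal muscle markers summed to 10.5 to 10.9 CPM in Cre-positive 4-OHT, 7.77 to 8.15 in Cre-positive ethanol, 4.39 to 4.81 in Cre-negative 4-OHT and 6.05 to 7.02 CPM in Cre-negative ethanol libraries. Of them Acta1 (0.91) and Des (1.47) were called higher of 3 tested, while Myod1 and Myog had at most 1 count in a library. Of 5 adipocyte and cartilage markers 2 were higher, the fatty acid carrier gene Fabp4 (0.96) and Col2a1, which stood at or below 1.01 CPM in each of the 8 libraries. Their sum was 22.2 to 24.7 CPM in Cre-positive 4-OHT and 14.9 to 16.5 in Cre-positive ethanol libraries, but 99.0 to 106 in Cre-negative 4-OHT and 104 CPM in both Cre-negative ethanol libraries. Neural markers summed to 142 to 143 CPM in Cre-positive 4-OHT, 184 to 187 in Cre-positive ethanol, 177 to 181 in Cre-negative 4-OHT and 166 to 180 CPM in Cre-negative ethanol libraries, most of it from Nes, Map2 and Sox2. Of 4 neural markers Nes was lower (-0.66) and Tubb3 higher (0.60), the call of Tubb3 ending without library 3, 6, 9 or 12 (adjusted p = 0.0657 to 0.218). The part of cell makeup in the results above was not tested.

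Among the genes named for the size of their difference, Cxxc5, a zinc finger protein gene of Wnt signalling, came after Rnu2-10 and Rnu1a1 (3.09, SE 0.25, adjusted p = 2.16e-08). It had 4.56 and 4.63 CPM in Cre-positive 4-OHT libraries, against 0.442 and 0.637 CPM in Cre-positive ethanol ones. Cre-negative libraries had 5.39 and 5.75 CPM with 4-OHT and 5.28 and 6.02 CPM with ethanol, and the Cre-positive 4-OHT level lay just below these. Mmp13, a collagenase, had 33.8 and 33.2 CPM in Cre-positive 4-OHT libraries, against 14.4 and 14.9 CPM in Cre-positive ethanol ones, and 0.486 and 0.561 CPM against 1.36 and 1.2 CPM in Cre-negative cells (difference 2.45, SE 0.263, adjusted p = 8.75e-07). Hrct1 (2.12) combined opposite effects as well, and Serpinb6b was at 1.95 (SE 0.358). Tex14, a germ cell gene, was at 1.93 (SE 0.305). It spans Rnu1a1, Gm22068 and the Rnu3b genes on the same strand, so its reads and theirs may be mixed. Tmem200b also met the rule for naming, but its Cre-negative libraries held 0 and 1 counts with 4-OHT and 5 and 3 with ethanol, too few for a fold, and its call ended without library 5, 6 or 9 (adjusted p = 0.0513 to 0.179).

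On the lower side the connexin gene Gjb2 had 28.5 and 28.2 CPM in Cre-positive 4-OHT libraries, against 51.9 and 64.1 CPM in Cre-positive ethanol ones, and 37.8 and 36.1 CPM against 24.4 and 25.2 CPM in Cre-negative cells (difference -1.61, SE 0.112, adjusted p = 3.82e-09). Untreated Cre-positive cells had 27.4 and 24.3 CPM, so the 4-OHT level was near theirs. Kcnq1ot1, the long non-coding RNA of an imprinted domain, had 19.5 and 20.9 CPM in Cre-positive 4-OHT libraries, against 36.6 and 43.4 CPM in Cre-positive ethanol ones, and 35.2 and 38.7 CPM against 32.0 and 28.7 CPM in Cre-negative cells (difference -1.28, SE 0.139, adjusted p = 1.03e-06). The zinc finger gene Hivep3 was at -1.67, Armcx4 at -1.47, the endothelial lipase gene Lipg at -1.37 and Tmcc3 at -1.28. Ppnr was at -1.93 and lies within Tcf7l2 on the same strand. Blnk met the rule too, but held 3 and 5 counts with 4-OHT and 1 and 1 with ethanol in Cre-negative cells, and its call ended without any library but library 3 (adjusted p = 0.0567 to 0.211). Just outside the number of genes named were Cgn (-1.27) and Hmga2 (-1.26).

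Gene structure went with the direction of the difference. Among tested protein-coding genes with 1 exon, 146 of 434 were higher and 22 lower (median 0.27). With 2 to 4 exons the median was 0.15 (n = 2311), with 5 to 10 exons 0.08 (n = 4507), with 11 to 20 exons -0.02 (n = 3503), and with more than 20 exons -0.13 (n = 1681), where 146 were higher and 605 lower. Histone genes were 56 of the single-exon genes, and without them 102 of 378 were higher and 22 lower (median 0.22). With untreated libraries as the reference the medians were 0.10, 0.08, 0.04, -0.04 and -0.10 in the same order of exon number. Other traits of the transcript showed trends too. By summed exon length the medians fell from 0.20 (up to 1000 bases) to -0.17 (over 8000 bases) against ethanol. Against untreated libraries these length medians ran only from 0.06 to -0.05. By GC content the medians against ethanol rose from -0.01 (up to 42%) to 0.11 (over 55%). Counts per gene rose with exon number too, with a median average log2 CPM of 3.14 at 1 exon and 5.62 above 20, a scale that includes transcript length. The part of count depth in the trend was not tested.

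Minor transcripts annotated inside protein-coding genes were lower more often than higher. GENCODE marks as TEC those transcripts that await experimental support, and 656 of them were tested. Of the 419 that lie inside a protein-coding gene on its strand 80 were lower (19.1%) and 0 higher, with a median of -0.64. Over all tested genes 13.8% were lower and 14.5% higher. Of 86 TEC transcripts on the opposite strand 7 were lower (8.14%) and 1 higher (median -0.24). Of 151 outside protein-coding genes 11 were lower (7.28%) and 8 higher (median 0.24). Both of these shares lower lie below that over all genes. Of 96 transcripts of the sense intronic class 19 were lower (19.8%) and 0 higher (median -0.61). With DESeq2 9 of these sense intronic transcripts were lower and 0 higher. Against untreated libraries 4 of them were lower and 1 higher (median -0.24). Counts were low, with a median average log2 CPM of -0.15 for same-strand and -0.27 for opposite-strand TEC transcripts and -0.22 for sense intronic ones. Over all tested genes it was 3.80. The 278 genes that hold the same-strand TEC transcripts had 82 lower and 38 higher, with a median of -0.07, but 37 lower and 60 higher against untreated libraries. The number of same-strand TEC transcripts called lower depended on single libraries, with 32, 41, 52, 49 and 32 lower without library 4, 6, 9, 10 and 11, and 24 with DESeq2, while at most 1 was higher in these. On the opposite strand it ranged from 0 without library 11 to 13 without library 12, and outside such genes from 2 without library 4 to 12 without library 3. With untreated libraries as the reference the same-strand TEC transcripts had 16 lower and 8 higher (median -0.20). The nuclear RNA Malat1 was at -0.30 (SE 0.0827, adjusted p = 0.00954) and at 0.11 against untreated libraries. Its call ended without library 4 (-0.19, adjusted p = 0.0701) or 11 (-0.24, adjusted p = 0.061) and with DESeq2 (adjusted p = 0.0726). Neat1 was at -0.10 (adjusted p = 0.691), but at 0.53 against untreated libraries (adjusted p = 0.0157). The part of nuclear or unspliced RNA content of the libraries in these values was not tested.

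**Figure D5:**
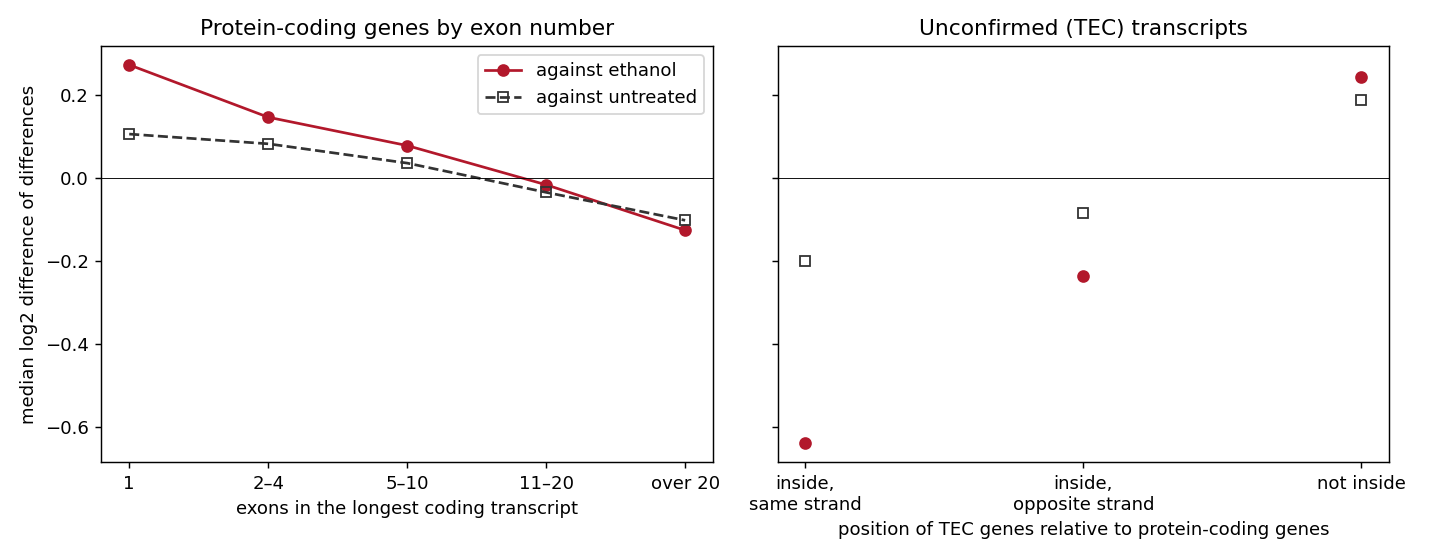
Median log2 difference of differences (vertical axis) for protein-coding genes by exon number (left) and for TEC transcripts by position relative to protein-coding genes (right), with ethanol (filled) or untreated libraries (open) as the reference. The median falls from 0.27 to -0.13 with exon number against ethanol, and same-strand TEC transcripts lie lowest at -0.64.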

How the data were processed

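Per the labels' protocols, total RNA was depleted of ribosomal RNA, made into stranded libraries and sequenced in pairs. The values are whole-number expected counts for each symbol, as deposited. The tools in the submitters' processing notes are RSEM 1.2.30, STAR 2.5.2a, cutadapt 1.11 and edgeR (no version), with build GRCm38. The sources do not give the annotation, strand setting, filter or rounding. Of 47517 symbols, 45120 matched 1 GENCODE M21 gene, 104 several and 2293 none. Counts of libraries of a group differed by more than sampling noise (chi-square per degree of freedom 2.37 to 4.60).

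The analysis used edgeR 4.0.16 in R 4.3.3: filterByExpr (17609 genes), TMM factors (0.972 to 1.02), and a quasi-likelihood fit with 1 mean per group on all 12 libraries (residual degrees of freedom 6, prior 14.6). P-values were 2-sided with Benjamini-Hochberg adjustment across the tested genes, threshold 0.05. Each SE was derived from the F statistic. CPM uses TMM-scaled totals. The code was tested on simulated data. Alternatives were DESeq2 1.42.0, limma-trend (limma 3.58.1), other scalings and filters, other references, and leaving out libraries. Applying them to list counts, gene structure, Malat1 and Neat1 was chosen after seeing the data.

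A GENCODE transcript joined an snRNA class where blastn aligned it to a named member at 90% identity or more over 80% of its length; U3 went by symbol. Exon numbers, summed exon lengths and GC content are those of the longest coding transcript. Members and the 28 gene lists were chosen with earlier results of these data known. Genes named are the targets, at most 10 per direction by size of the difference (adjusted p under 0.05, average log2 CPM of at least 1, no overlap between Cre-positive groups, no predicted-gene symbols), up to 4 per list that passed, by smallest p, or its member with the smallest p, and every measured named polymerase II snRNA. Class U4 was not analysed here, and 1 named gene is not reported here. Within-batch values cannot be had, since the labels give no batch.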

Additional observations from a re-analysis of the deposited data

Results flagged for a closer look

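The tested value is itself a difference between genotypes, so all 4987 called genes differ between Cre-positive and Cre-negative cells by that test. Of the 104 named genes 101 passed it, and 26 of these are repeated here because 4-OHT changed them in opposite directions in the genotypes, each change passing on its own. With a rise in Cre-positive and a fall in Cre-negative cells they were Mmp13 (2.45), Hrct1 (2.12), Des (1.47), Klf2 (1.17), Ahrr (1.12), Fabp4 (0.96), Wisp2 (0.71), Hist1h2bl (0.69), Hist1h1a (0.68), Hist1h3a (0.66), Btg2 (0.62), Col3a1 (0.48) and Ctsd (0.42), each value the log2 difference. With a fall in Cre-positive and a rise in Cre-negative cells they were Gjb2 (-1.61), Lipg (-1.37), Nsdhl (-0.96), Kif23 (-0.77), Hmgcs1 (-0.77), Cav1 (-0.72), Plk2 (-0.62), Tnfrsf10b (-0.62), Stard4 (-0.49), Cenpf (-0.47), Csf1 (-0.46), Bub1 (-0.44) and Col1a2 (-0.31). Groups of 2 libraries are too small for a check of outlying samples.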

How the results depend on the processing

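Genes called numbered 3435 with DESeq2 (4438 without an adjusted p), 4779 with limma-trend, 4986 without TMM, 5011 with upper quartile factors, 4600 without a filter, 5013 with at least 1 CPM in 2 libraries, 4890 from the 8 libraries alone, 4190 against untreated and 4989 against ethanol and untreated libraries together; DESeq2 called 1590 higher, 46.3% of its calls against 51.2%. Leaving out a library gave 3770 to 4929 genes called, 1769 to 2379 higher and 1913 to 2550 lower, Nabp1 at -2.19 to -1.97, Nabp2 at -2.38 to -2.17, and class sums of -0.14 to -0.07 (U1), -0.13 to 0.022 (U2), -0.31 to -0.066 (U3), 1.25 to 1.51 (U5) and -0.73 to -0.63 (U12). Against untreated libraries the sign turned for Hist1h1a (-0.043), Irf9 (-0.51), Ifit1 (-0.42), Usp18 (-0.79), Hmgcs1 (0.037), Lss (0.053), Stard4 (0.12), Postn (-1.57), Lox (-0.057), Col3a1 (-0.55), Wisp2 (-0.41), Csf1r (-0.14), Tubb3 (-0.49) and the U2 sum (0.39), and the U12 sum no longer passed (-0.025). Hivep3, Armcx4, Ints8, Vwa9, Ints12, Rnu12, Terc, Hist1h2bl, Hist1h3a, Ifi27, Csf1, Snhg8, Snhg17, Egr1, Cyp1b1, Hoxa13, Pdgfra, Des and Col2a1 kept their sign there but did not pass (lowest adjusted p = 0.0659). Against both references together it turned for Postn (-0.49), Col3a1 (-0.037) and the U2 sum (0.17), and Irf9, Ifit1, Usp18, Snhg17, Hoxa13 and Tubb3 did not pass (adjusted p = 0.0562 to 0.873). With DESeq2 Tmem200b, Blnk, Ints12, Snhg17, Hoxa13, Col1a1 and Tubb3 did not pass (adjusted p = 0.0545 to 0.142), and Des and Col2a1 had no adjusted p. Cdh1, not called, turned without library 3 (-0.25), and the U2 sum without library 5 (0.022). The U3 sum passed without a filter (-0.18) and without library 6 (-0.31). The cause of these changes was not tested. No paired analysis was possible because the labels name no embryo, line or culture shared between groups. Low counts limit Tmem200b, Blnk, Col2a1 and the markers of other cell types.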

Other observations

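Further annotation classes were counted after the data were seen. Of 159 tested small nucleolar RNAs 15 were lower and 5 higher in the difference, with a median of -0.24. These shares of 9.43% and 3.14% lie below those over all tested genes, 13.8% lower and 14.5% higher. Of 48 long non-coding RNAs that start from a shared, bidirectional promoter 9 were higher and 0 lower (median 0.53). Their share called higher, 18.8%, is near the 14.5% over all tested genes. Of 1807 processed pseudogenes 134 were lower and 97 higher (median -0.05), shares of 7.42% and 5.37% that also lie below those over all genes. On chromosome 13, which holds the Hist1 cluster, 153 of 647 tested genes were higher and 71 lower (23.6% and 11%). Over all tested genes these shares were 14.5% and 13.8%. The part of the Hist1 genes in the chromosome 13 counts was not tested.

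Zfp574, a zinc finger gene picked after its values were seen, had 324 and 337 CPM in Cre-positive 4-OHT libraries, against 184 and 160 CPM in Cre-positive ethanol ones, and 199 and 221 CPM against 358 and 342 CPM in Cre-negative cells (difference 1.68, SE 0.115). Untreated libraries had 380 and 291 CPM in Cre-positive and 226 and 217 CPM in Cre-negative cells, and with them as the reference the difference was 0.05 (adjusted p = 0.806).

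Sox2, a pluripotency and neural progenitor gene, was measured in all of these fibroblast libraries. It had 35.1 and 35.7 CPM in Cre-positive 4-OHT and 40.8 and 41.6 CPM in Cre-positive ethanol libraries, against 10.4 and 8.88 CPM and 12.5 and 11.1 CPM in Cre-negative 4-OHT and ethanol ones, with no called difference (0.08, adjusted p = 0.627).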
